A study of Arabidopsis thaliana with 18 samples.

Results

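Class III peroxidases are secreted plant enzymes, and 6 of their genes were followed through flower opening in Arabidopsis plants with raised or lost AtLEJ1 function. The 6 genes are AT5G64120 (PRX71), AT5G05340 (PRX52), AT2G37130, AT5G19880, AT4G11290 and AT3G03670. Each was measured by 1 probe set that the platform annotation gives to that gene alone, so the 6 genes are 6 of 22745 probe sets on the array (controls left out) and 6 of the 15113 that were bright enough to test. Another 67 loci of the family were listed with them, of which 49 had a probe set of their own and 19 were bright enough to test.

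The flowers came from 5-week-old plants of 3 genotypes: plants carrying 35S:AtLEJ1 (written OE), in which the cauliflower mosaic virus 35S promoter, active in most plant tissues, drives AtLEJ1; a lej1 mutant (written KO); and wild type (WT). LEJ1 is a protein with CBS domains. From each genotype, open flowers (floral stages 13 to 14) and unopened buds (stages 1 to 12) were taken, which gives the 6 groups open OE, open KO, open WT, OE buds, KO buds and WT buds, with 3 ATH1 arrays each and 18 in all. The labels call the arrays of a group biological replicates but do not give the number of plants or of independent transgenic lines behind them. Values are linear intensities in arbitrary units that share 1 scale on every array, and the array median lay between 202 and 232. The groups rest on the sample titles and source names, because the free-text descriptions contradict 15 of the 18 titles. No probe set in the annotation used names LEJ1, so its own level was not analysed here. In a whole flower, fewer cells of a type and less RNA per cell cannot be told apart.

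Class III peroxidases use hydrogen peroxide to oxidise phenolic compounds in the cell wall. Depending on the partner molecules they cross-link wall polymers and help to polymerise lignin, or they generate reactive oxygen species that loosen the wall. In flowers, walls are remodelled during organ growth, and the lignified wall thickenings of the anther are part of how it opens. PRX52 is known for its part in lignin synthesis in the stem, and PRX71 for limiting growth through wall stiffening. For the other members the tables used here give a locus only, and no separate role is stated for them.

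The members were chosen from these data. PRX71, AT5G19880, AT4G11290 and AT3G03670 were picked for their difference between OE and WT in open flowers, PRX71, AT2G37130 and PRX52 for their difference between open WT flowers and WT buds, and PRX52 also for the way that stage difference departs in OE from WT. Those contrasts, and all others that share arrays with them, are given below as levels and log2 changes without a test. A p is printed for a member only where neither group entered the contrast that selected it. Log2 changes are differences of group means of log2(intensity + 16) with the standard error (SE) of a limma fit over all 6 groups, and they understate the change of dim probe sets. Adjusted p-values are limma's after Benjamini-Hochberg adjustment over the 15113 tested probe sets of a contrast, and a difference with an adjusted p under 0.05 is referred to as called.

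**Figure D1:**
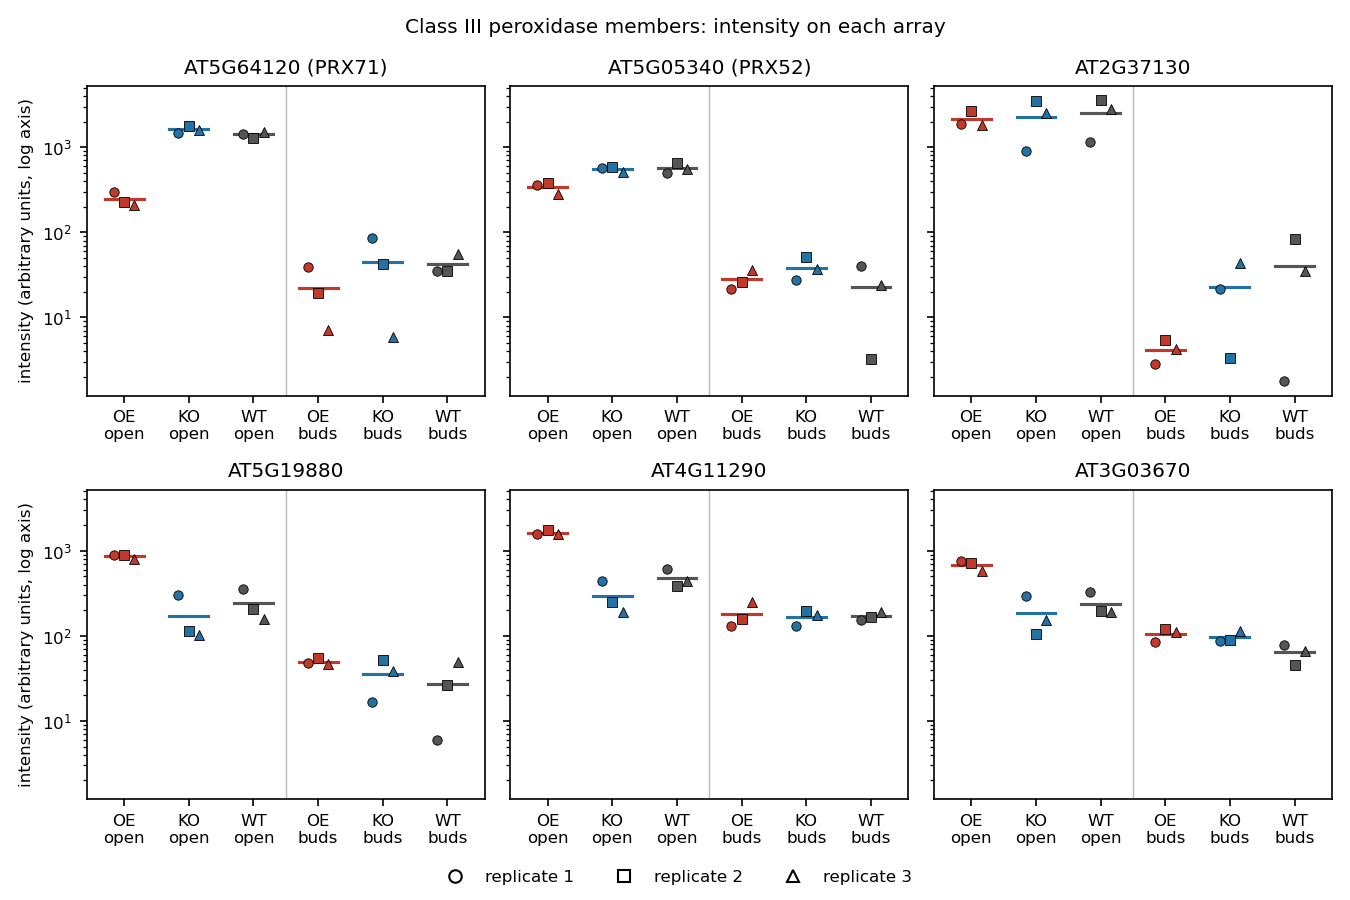
Intensity of the 6 peroxidase genes on each array, in arbitrary units on a log axis. Points are arrays (circle, square and triangle for replicates 1, 2 and 3), horizontal lines are group means, and groups run OE, KO, WT in open flowers and then in buds. PRX71 in open OE flowers sits between 208 and 295, below every open KO and open WT array, whereas AT5G19880, AT4G11290 and AT3G03670 in open OE flowers sit above every array of the other 5 groups.

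PRX71 was the member with the largest deficit in open OE flowers. It read 295, 229 and 208 in open OE flowers, 1471, 1789 and 1603 in open KO flowers, and 1446, 1287 and 1512 in open WT flowers. The open OE arrays lay far below the open WT arrays without overlap, while the open KO and open WT arrays overlapped. The group means were 244 ± 45.7 in open OE, 1621 ± 160 in open KO and 1415 ± 116 in open WT flowers (SD, n = 3 each), and the log2 change of OE against WT that selected the gene was -2.47 ± 0.39 (SE), 5.54-fold on that scale. Open KO flowers differed from open WT flowers by 0.19 ± 0.39.

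PRX71 was dim in the buds of every genotype. It read 39.4, 19.1 and 7.21 in OE buds, 84.8, 42.4 and 5.89 in KO buds, and 35.4, 34.8 and 55.6 in WT buds. All 9 bud arrays lay below the 40th percentile of their own array, the level used here as the limit of a usable signal. The tested difference of OE buds from KO buds, -0.50 ± 0.39, did not pass (adjusted p = 1.000). Flower opening raised PRX71 in KO, the genotype whose arrays did not enter its selection: the log2 change of open KO flowers against KO buds was 5.01 ± 0.39 (adjusted p = 2.7e-08), beside a background of 20.9% of all tested probe sets called in that contrast. The size of this change is not well determined, because no bud array was above the filter level and the gene passed the filter through open flowers only: it ran from 4.02 to 5.78 over the alternatives, and from 4.41 to 5.51 when single arrays were left out. The p of the KO contrast is for the same reason not independent of the filter. The stage change was 4.64 ± 0.39 in WT, which selected the gene, and 2.85 ± 0.39 in OE. PRX71 was thus higher in open flowers than in buds on every array of every genotype, and the open OE arrays were intermediate between the buds and the other open flowers.

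PRX52, the other member with lower levels in open OE flowers, showed a smaller deficit. It read 363, 382 and 283 in open OE flowers, 567, 584 and 508 in open KO flowers, and 502, 651 and 552 in open WT flowers. The open OE arrays again lay below all 6 arrays of the other open flowers. Means were 343 ± 52.7 in open OE, 553 ± 40.2 in open KO and 568 ± 76.1 in open WT flowers (SD, n = 3 each), a log2 change of -0.71 ± 0.29 for OE against WT.

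In buds PRX52 read 21.6, 26.1 and 36.5 in OE, 27.4, 50.9 and 37.4 in KO, and 40.3, 3.26 and 24.3 in WT. The 3 bud groups overlapped and all 9 arrays lay below the 40th percentile. PRX52 rose with flower opening in KO by 3.40 ± 0.29 on the log2 scale (adjusted p = 8.1e-08, the contrast that did not enter its selection), a change that ran from 2.59 to 3.85 over the alternatives. The gene passed the filter through open flowers only, so this p is not independent of the filter. The stage change was 3.03 ± 0.29 in OE and 4.04 ± 0.29 in WT, and the selecting difference of these changes, OE minus WT, was -1.02 ± 0.41. Without replicate 2 of the WT buds, the dimmest PRX52 value of the series, that difference was -0.58.

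AT2G37130 had the largest stage difference of the 6 genes and no clear difference between genotypes. It read 1889, 2653 and 1837 in open OE flowers, 895, 3484 and 2501 in open KO flowers, and 1158, 3577 and 2777 in open WT flowers. The open groups overlapped, and the spread inside open KO and open WT was wide because replicate 1 read lowest in both. Buds read 2.82, 5.47 and 4.21 in OE, 21.4, 3.30 and 43.8 in KO, and 1.77, 83.5 and 34.7 in WT, and all 9 bud arrays lay below the 40th percentile.

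For AT2G37130 more contrasts held no selecting array, since its selection used WT arrays only. They are not fully independent of it, because the SE rests on the variance of all 6 groups. Replicate 1 also read lowest in open KO as in open WT. Open flowers exceeded buds by 6.71 ± 0.57 in OE (adjusted p = 5.2e-08, beside 31.1% of probe sets called) and by 5.83 ± 0.57 in KO (adjusted p = 3.8e-07), against 5.67 ± 0.57 in WT. Open OE flowers, at 2126 ± 457, did not differ detectably from open KO flowers, at 2293 ± 1307 (log2 change 0.08 ± 0.57, adjusted p = 0.969). The difference became -0.49 without replicate 1 of open KO and 0.48 without replicate 2 of open KO. OE buds differed from KO buds by -0.80 ± 0.57 (adjusted p = 1.000), and the stage changes in OE and KO differed by 0.88 ± 0.80 (adjusted p = 0.785). The stage changes of this gene depend on the pseudocount, since its bud values are near 0, and ran from 4.99 to 8.70 in OE over the alternatives. It passed the filter through open flowers only, so its stage p-values are not independent of the filter.

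AT5G19880, AT4G11290 and AT3G03670 formed the group with higher levels in open OE flowers. AT5G19880 read 888, 881 and 796 in open OE flowers, 299, 113 and 102 in open KO flowers, and 354, 208 and 159 in open WT flowers. Every open OE array was above every other open array, whereas open KO and open WT overlapped. Means were 855 ± 51.6 in open OE, 171 ± 110 in open KO and 241 ± 102 in open WT flowers (SD, n = 3 each), and the selecting log2 change of OE against WT was 1.83 ± 0.40. Open KO differed from open WT by -0.53 ± 0.40.

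AT4G11290 read 1554, 1765 and 1572 in open OE flowers, 440, 253 and 189 in open KO flowers, and 612, 388 and 447 in open WT flowers. The open OE arrays again stood above all others, at a mean of 1630 ± 117 against 294 ± 131 in open KO and 482 ± 116 in open WT (SD, n = 3 each). The selecting log2 change of OE against WT was 1.75 ± 0.26, and open KO differed from open WT by -0.74 ± 0.26 with replicate 1 of open KO above replicate 2 of open WT. AT3G03670 read 750, 715 and 578 in open OE flowers, 294, 106 and 154 in open KO flowers, and 324, 198 and 189 in open WT flowers. Its means were 681 ± 90.7 in open OE, 185 ± 98.1 in open KO and 237 ± 75.7 in open WT (SD, n = 3 each), with a selecting change of 1.49 ± 0.28 for OE against WT and a change of -0.41 ± 0.28 for KO against WT.

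All 3 genes thus had the order OE above WT above KO in the means of open flowers. The place of OE above WT in this order is the difference that selected the genes. When arrays of the same replicate number were set side by side, KO was below WT in 3 of 3 for each of them. The labels do not state this pairing, and how many probe sets show the same was not counted, so nothing is concluded from it. The difference between open KO and open WT shares its WT arrays with the selecting contrast and was not tested. Over all tested probe sets 0.0132% were called between open KO and open WT.

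**Figure D2:**
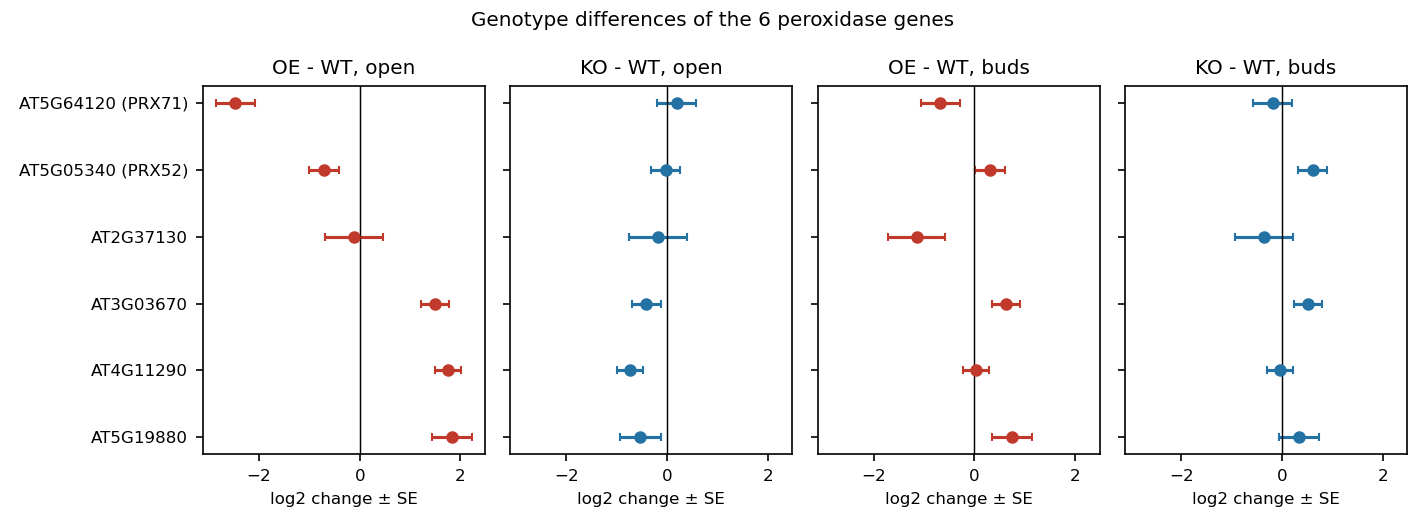
Log2 change of the 6 genes between genotypes (points, with standard error bars), from left to right OE minus WT and KO minus WT in open flowers, then OE minus WT and KO minus WT in buds. In open flowers the OE changes spread from -2.47 for PRX71 to 1.83 for AT5G19880, while the KO changes lie between -0.74 and 0.19.

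In buds the same 3 genes could be tested, because no bud array entered their selection, and no genotype difference passed. AT5G19880 read 47.7, 55.2 and 46.9 in OE buds, 16.9, 52.4 and 38.9 in KO buds, and 5.93, 26.8 and 49.1 in WT buds. The log2 change was 0.74 ± 0.40 for OE against WT (adjusted p = 0.926) and 0.34 ± 0.40 for KO against WT (adjusted p = 1.000), and it fell to -0.08 in the KO contrast without replicate 1 of the WT buds. AT4G11290 read 130, 158 and 251 in OE buds, 130, 198 and 173 in KO buds, and 152, 165 and 192 in WT buds. Its bud groups overlapped, with changes of 0.03 ± 0.26 for OE (adjusted p = 0.999) and -0.03 ± 0.26 for KO (adjusted p = 1.000) against WT. Both signs turned under other settings, -0.22 to 0.22 for OE and -0.15 to 0.12 for KO when single arrays were left out.

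AT3G03670 read 84.5, 121 and 112 in OE buds, 86.9, 89.8 and 114 in KO buds, and 78.8, 45.6 and 67.03 in WT buds. Both the OE and the KO bud arrays lay above all 3 WT bud arrays. The changes of 0.62 ± 0.28 for OE (adjusted p = 0.864) and 0.52 ± 0.28 for KO (adjusted p = 1.000) against WT nevertheless did not pass the threshold over all probe sets. Called in buds were 0.146% of probe sets between OE and WT and 0.00662% between KO and WT.

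With flower opening, AT5G19880 rose in KO, where the stage contrast held no selecting array, by 1.76 ± 0.40 (adjusted p = 0.0031). Only 1 of its open KO arrays, replicate 1, and 0 of its KO bud arrays were above the 40th percentile. The size of the change is therefore set among values mostly below that level. The change was 1.31 without replicate 1 of open KO and stayed past the threshold in every alternative tried (1.01 to 2.18, adjusted p 0.0018 to 0.023). AT4G11290 and AT3G03670 did not pass in KO: their stage changes were 0.69 ± 0.26 (adjusted p = 0.072) and 0.72 ± 0.28 (adjusted p = 0.083). With the replicate number as a block AT3G03670 passed at the same change of 0.72 (adjusted p = 0.045; range over the alternatives 0.014 to 0.480). Without replicate 1 of open KO these changes were 0.37 for AT4G11290 and 0.35 for AT3G03670. The stage changes in OE were 3.72 ± 0.40 for AT5G19880, 3.12 ± 0.26 for AT4G11290 and 2.52 ± 0.28 for AT3G03670, and those in WT 2.63 ± 0.40, 1.40 ± 0.26 and 1.65 ± 0.28 in the same order of genes.

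The filter on dim probe sets bears on these comparisons. All 6 genes passed it, but 5 of them passed through open flowers alone, with no bud array above the 40th percentile, and AT4G11290 was the exception. The stage p-values of those 5 genes are therefore not independent of the filter. In the fit, 3 of the 6 genes were called higher and 1 lower in open OE against open WT flowers, beside 0.179% of probe sets called higher and 0.503% called lower; that contrast selected these 4 genes, so nothing is read from the count.

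The open KO and open WT arrays labelled replicate 1 stood apart in several members. Relative to their group means on the log2 scale, replicate 1 of open KO was higher by 0.90 for AT5G19880, 0.64 for AT4G11290 and 0.74 for AT3G03670, and AT2G37130 deviated by -1.14. On replicate 1 of open WT the deviations were 0.60, 0.36 and 0.47 for the same 3 genes and -0.95 for AT2G37130. On replicate 1 of open OE they were 0.06, -0.07, 0.14 and -0.15. PRX71 deviated by -0.13 on replicate 1 of open KO and by 0.03 on that of open WT.

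Markers of the tapetum, the nourishing cell layer of young anthers, moved with that replicate. The summed intensity of the 4 measured genes of a list of 9 was 332, 58.7 and 36.4 in open OE flowers, 1320, 69.8 and 349 in open KO flowers, and 308, 60.6 and 54.0 in open WT flowers for replicates 1, 2 and 3. In buds it lay between 18400 and 20800 in OE, 16700 and 23100 in KO, and 18100 and 25800 in WT. All 4 tapetum genes were called lower in open flowers than in buds in each genotype and none was called between genotypes. The part of tapetum content in the deviations of the peroxidase genes was not tested. None of the 11 listed floral organ identity genes has a probe set of its own in the annotation used, so organ composition was not checked with them.

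Across the 18 arrays the members fell into sets with like profiles, as a description in which arrays of a group share their group mean. The genes of a set were also selected on the same contrast, so their r over arrays follows in part from that choice. Pearson's r of log2 values was between 0.949 and 0.951 among AT5G19880, AT4G11290 and AT3G03670, and between 0.521 and 0.711 for their deviations within groups. PRX71, PRX52 and AT2G37130 correlated with each other at 0.880 to 0.922 over arrays, but their deviations within groups gave -0.478 to -0.154. AT3G03670 and AT2G37130 had opposite deviations within groups (r = -0.659).

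The gene whose profile was most like that of AT4G11290 was AT1G25330, named CES in RefSeq and with the synonym HAF, a basic helix-loop-helix transcription factor that acts in development of the transmitting tract of the ovary. Its r with AT4G11290 was 0.959 over 18 arrays. AT1G25330 read 2226, 2476 and 2407 in open OE flowers, 860, 874 and 755 in open KO flowers, and 1409, 1348 and 1120 in open WT flowers. The open groups did not overlap and had the same order as the 3 peroxidase genes. It was higher in open OE flowers, at 2370 ± 129, than in open WT flowers, at 1290 ± 152 (SD, n = 3; log2 change 0.87 ± 0.14, adjusted p = 0.0036), a p that is not independent of its likeness to a gene selected on that contrast. Open KO flowers, at 830 ± 64.9, differed from open WT by -0.63, which did not pass (adjusted p = 0.484). In buds its means were 661 ± 69.4 in OE, 601 ± 93.4 in KO and 736 ± 73.4 in WT.

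**Figure D3:**
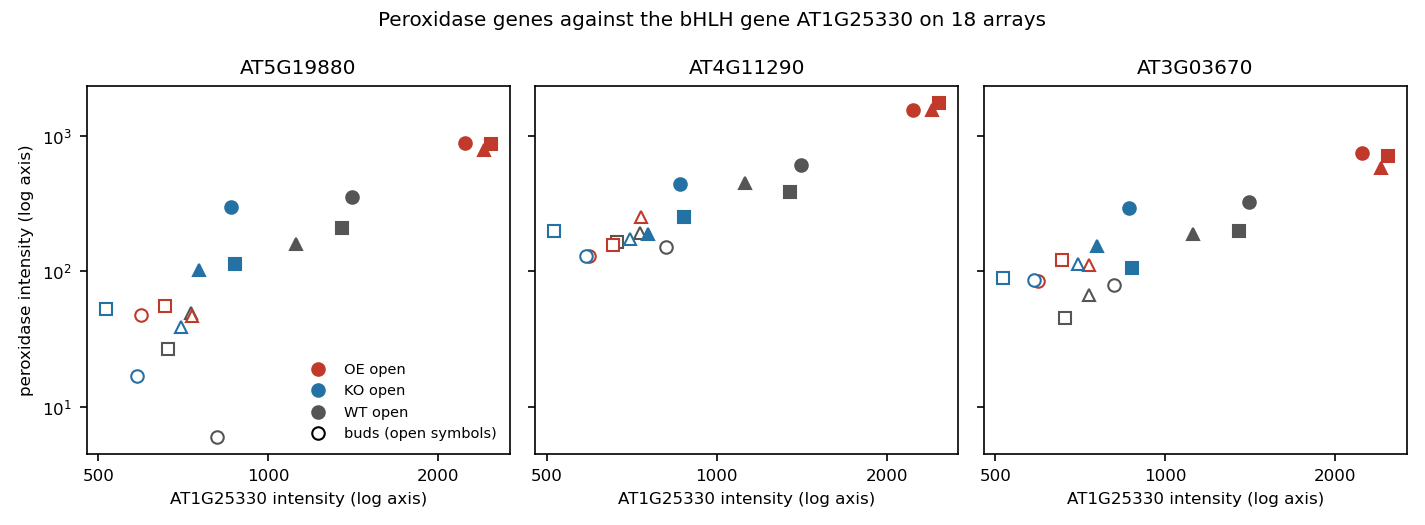
Intensity of AT5G19880, AT4G11290 and AT3G03670 (vertical, log axis) against that of AT1G25330 (horizontal, log axis) on 18 arrays. Filled symbols are open flowers and open symbols buds, coloured by genotype, with circle, square and triangle for replicates 1, 2 and 3. The 3 open OE arrays lie at the upper right, at 2226 to 2476 for AT1G25330, with open WT arrays next and open KO arrays nearest the buds.

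Of the 7 listed genes of the stigma and transmitting tract, AT1G25330 and SPT were measured. SPT, another basic helix-loop-helix gene of that tissue, did not follow AT1G25330. It averaged 311 ± 35.1 in open OE, 274 ± 46.3 in open KO and 245 ± 20.1 in open WT flowers (SD, n = 3 each), and was called in no genotype contrast. With flower opening SPT was lower in all 3 genotypes, by -0.41 in OE (adjusted p = 0.039), -0.46 in KO (adjusted p = 0.027) and -0.57 in WT (adjusted p = 0.0059). The summed intensity of both genes, most of it from AT1G25330, was 2498 to 2816 in open OE, 1047 to 1182 in open KO and 1384 to 1633 in open WT flowers. The mature pollen list gave 3552 to 3824 in open OE, 2962 to 4196 in open KO and 2909 to 3140 in open WT flowers over 7 measured genes, none of which was called between genotypes.

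Further genes were most like the other members by the same measure. PRX71 was most like AT1G65500 (r = 0.956), UGT87A2 (AT2G30140, a glycosyltransferase gene, r = 0.952) and AT1G68620 (r = 0.951). UGT87A2 read 415 ± 65.5 in open OE and 887 ± 132 in open WT flowers, a log2 change of -1.07 ± 0.20. For the same contrast AT1G65500 changed by -2.01 ± 0.44 and AT1G68620 by -0.62 ± 0.32, the latter not called. AT5G19880 was most like AT1G30795 (r = 0.949), AT5G37740 (0.945) and AT3G45940 (0.944), and AT3G03670 most like AT4G36770 (0.934), GLC (AT1G65450, 0.928) and AT5G24240 (0.926). AT1G30795 read 2580 ± 129 in open OE and 1300 ± 131 in open WT flowers, a log2 change of 0.98 ± 0.20. AT5G37740 changed by 0.45 ± 0.14 and AT3G45940 by 0.68 ± 0.28 between these groups, and neither was called. After AT1G25330, AT4G11290 was most like AT1G20310 (0.933) and AT4G21620 (0.930). AT2G37130 was most like AT4G34180 (0.992), FDH (AT5G14780, formate dehydrogenase, 0.985) and AT5G25770 (0.980), and PRX52 most like AT1G54790 (0.978), AT4G09760 (0.977) and AT4G00700 (0.973).

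PRX71 has family neighbours on chromosome 5. AT5G64110 and AT5G64100 precede it in the gene order of TAIR10.1, and both have probe sets too dim for the filter. AT5G64110 read 2.29, 1.996 and 15.6 in open OE flowers, 61.2, 173 and 112 in open KO flowers, and 62.8, 94.8 and 148 in open WT flowers. All open OE arrays lay below all 6 other open arrays, as for PRX71, and at the level of the buds, whose means were 11.3 in OE, 6.53 in KO and 13.9 in WT. This gene was singled out after its values were seen. Since it was chosen for this pattern, its changes are given as a description, without a test. On the log2(intensity + 16) scale it changed by -2.37 for OE against WT in open flowers, and by -4.15 and -1.21 with pseudocounts of 1 and 64, so the size is not determined. Only 1 open KO and 1 open WT array were above the 40th percentile of their array, and no other. Neighbouring peroxidase genes can be near copies, and whether the probe sets of PRX71 and AT5G64110 share signal was not tested.

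AT5G64100 did not show that pattern, with means of 40.5 in open OE, 58.3 in open KO and 19.4 in open WT flowers. AT5G19890, next to AT5G19880, averaged 41.6 in open OE, 35.9 in open KO and 29.9 in open WT flowers, and 25.4 to 49.3 in buds. Its 3 open groups overlapped.

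Of the 19 other tested peroxidase genes, 2 were lower and 0 higher in open OE than in open WT flowers, beside 0.682% of all probe sets called in either direction. AT5G39580 read 28.9, 22.5 and 25.7 in open OE flowers, 138, 168 and 183 in open KO flowers, and 175, 108 and 108 in open WT flowers. The open OE arrays lay below all others, and the log2 change against WT was -1.78 ± 0.31 (adjusted p = 0.0095, -2.26 to -1.10 over the alternatives). AT4G36430 read 71.5, 31.1 and 69.2 in open OE flowers, 146, 192 and 165 in open KO flowers, and 176, 145 and 208 in open WT flowers, again without overlap (log2 change -1.43 ± 0.28, adjusted p = 0.021, and 0.0059 to 0.128 over the alternatives). Both genes are dim and passed the filter through the groups where they were high. AT5G39580 was above the 40th percentile on 3 open KO arrays and 1 open WT array, AT4G36430 on 3 open KO and 3 open WT arrays, and neither on any open OE or bud array, so the sizes are set against values below that level. Without replicate 2 of open OE neither was called, and AT4G36430 was also lost without replicate 1 or without replicate 3 of open WT. The median log2 change of the 19 genes was -0.01, beside -0.02 over all tested probe sets, and 5 of them had an unadjusted p under 0.05. The share of all probe sets with such a p was not computed, so nothing is read from that count.

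Like PRX71, these genes rose with flower opening in KO and WT. AT5G39580 changed by 2.17 ± 0.31 in KO (adjusted p = 3.7e-05) and by 1.22 ± 0.31 in WT (adjusted p = 0.0072), and AT4G36430 by 1.36 ± 0.28 in KO (adjusted p = 0.0012) and 1.67 ± 0.28 in WT (adjusted p = 1.5e-04). In OE both changed by -0.27 (adjusted p = 0.554 and 0.506), with every OE array below the 40th percentile. Both genes passed the filter through open KO and open WT arrays, so p-values that use those arrays are not independent of the filter. The stage change of AT5G39580 in OE minus that in KO was -2.45 ± 0.44 (adjusted p = 0.022, beside 0.265% of probe sets called), and minus that in WT it was -1.50 ± 0.44, which did not pass (adjusted p = 0.264, beside 0.179% called). For AT4G36430 the difference of stage changes was -1.94 ± 0.39 for OE minus WT (adjusted p = 0.052) and -1.62 ± 0.39 for OE minus KO (adjusted p = 0.107), and neither passed.

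No other family gene was called between OE and WT in buds or between KO and WT at either stage. Over all probe sets 0.146% were called between OE and WT in buds. Between KO and WT it was 0.0132% in open flowers and 0.00662% in buds. At such shares the absence of calls says little about the family. An unadjusted p under 0.05 was found for 3 of 19 genes between OE and WT in buds and for none between KO and WT. The share of all probe sets with such a p was not computed, so nothing is read from these counts. AT5G51890 read 1008, 857 and 1127 in OE buds, 1620, 2026 and 1984 in KO buds, and 1963, 1497 and 1524 in WT buds. The OE arrays lay below all 6 others, with a log2 change of -0.90 ± 0.17 against KO (adjusted p = 0.036, beside 0.205% of probe sets called) and -0.73 ± 0.17 against WT (adjusted p = 0.150, and 0.042 with the replicate number as a block). The call against KO was lost whenever any 1 OE or KO bud array was left out.

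Open OE against open KO flowers gave calls for 1 higher and 2 lower among the 19 genes, beside 1.52% of probe sets. AT1G44970 averaged 5150 ± 650 in open OE and 2770 ± 672 in open KO flowers (SD, n = 3; log2 change 0.91 ± 0.22, adjusted p = 0.048), which 11 of 18 alternatives did not keep. AT5G39580 and AT4G36430 were lower in OE by this comparison too (-2.09, adjusted p = 0.0016, and -1.37, adjusted p = 0.018). This comparison shares its OE arrays with that against WT. AT5G39580 and AT4G36430 passed the filter through groups where they were high, open KO among them, so these p-values are not independent of the filter.

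**Figure D4:**
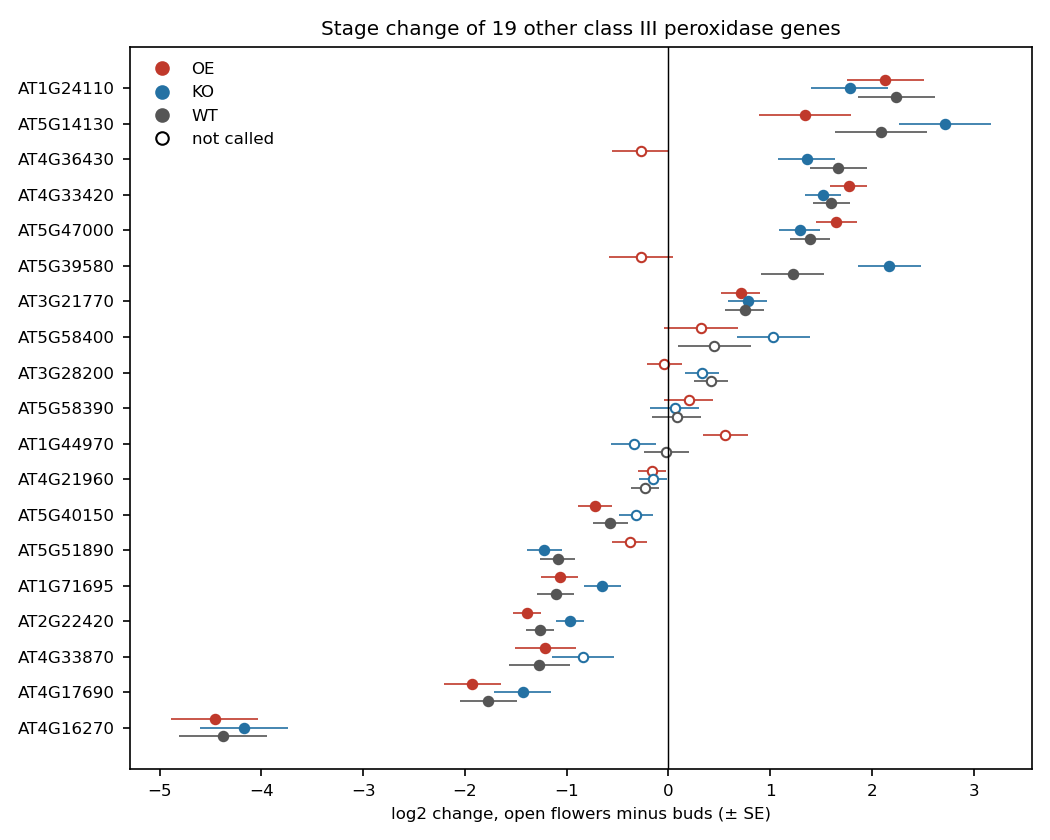
Log2 change from buds to open flowers (open minus buds, with standard error bars) of the 19 other tested class III peroxidase genes in OE, KO and WT. Filled points were called by limma and open points were not. AT4G16270 lies lowest, between -4.46 and -4.17 in the 3 genotypes, and AT4G36430 and AT5G39580 are above 1 in KO and WT and at -0.27 in OE.

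Among the 19 other tested genes, stage differences were called in both directions. Several of these genes, AT4G16270, AT1G24110 and AT4G33420 among them, passed the filter through a single stage. The stage calls are therefore not independent of the filter. Of the 73 listed loci, 25 were tested in all, the 6 members included. Called were 5 higher and 6 lower of the 19 in OE, 7 higher and 5 lower in KO, and 7 higher and 7 lower in WT. Over all tested probe sets, 14.3% were called higher and 31.1% in either direction in OE, 11.1% and 20.9% in KO, and 12.3% and 23.4% in WT. The median log2 change of the 19 genes was -0.16 in OE, 0.06 in KO and 0.08 in WT, beside -0.08, -0.03 and -0.04 over all tested probe sets. By direction, 5 genes were called higher in all 3 genotypes (AT1G24110, AT4G33420, AT5G47000, AT3G21770 and AT5G14130) and 4 lower in all 3 (AT4G16270, AT4G17690, AT2G22420 and AT1G71695). A further 5 were called in no genotype, and none was called in opposite directions.

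AT4G16270 had the largest stage difference of these genes in each genotype and ran opposite to the 6 members. It averaged 37.6 ± 12.0 in open OE flowers and 1150 ± 222 in OE buds, 40.8 ± 30.9 in open KO flowers and 895 ± 162 in KO buds, and 39.2 ± 37.3 in open WT flowers and 977 ± 206 in WT buds. Its log2 changes were -4.46 in OE, -4.17 in KO and -4.38 in WT (SE 0.43 each, adjusted p = 2.8e-07, 8.1e-07 and 3.7e-07). AT4G17690 fell by 1.93 in OE, 1.43 in KO and 1.77 in WT, and AT2G22420 by 1.39 in OE. AT5G51890 fell by 1.22 in KO and AT4G33870 by 1.27 in WT.

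Of the genes that rose, AT5G47000 averaged 5580 ± 33.0 in open OE flowers and 1800 ± 373 in OE buds (log2 change 1.65 ± 0.20, adjusted p = 3.1e-06). AT4G33420 rose by 1.77 ± 0.18 in OE (adjusted p = 4.7e-07), and AT1G24110 by 2.13 in OE, 1.78 in KO and 2.24 in WT. Neither of these genes was above the 40th percentile on any bud array, so both passed the filter through open flowers alone. AT5G14130 rose by 2.72 ± 0.45 in KO (adjusted p = 1.5e-04) and 2.09 ± 0.45 in WT (adjusted p = 0.0017), and by 1.34 ± 0.45 in OE (adjusted p = 0.029), which 6 of 17 alternatives did not keep. No OE array of AT5G14130 was above the 40th percentile at either stage, and the gene was tested through its open KO and open WT arrays. PRXR1 (AT4G21960), read at 7800 ± 476 in open OE, 7640 ± 400 in open KO and 7980 ± 1530 in open WT flowers, was called in no contrast.

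Genes that work beside the peroxidases were covered thinly. Among 10 listed NADPH oxidase genes, whose products supply superoxide from which hydrogen peroxide forms, only AT1G19230 was tested, and it was lower in open flowers than in buds by -2.15 in OE (adjusted p = 6.8e-04), -2.37 in KO (adjusted p = 3.2e-04) and -2.62 in WT (adjusted p = 1.1e-04). UPB1 (AT2G47270), a transcription factor known in roots as a repressor of peroxidase genes, averaged 767 ± 76.9 in open OE, 850 ± 347 in open KO and 951 ± 606 in open WT flowers, and between 95.1 and 98.6 in the 3 bud groups. Its log2 change with opening was 2.83 in OE (adjusted p = 7.3e-06), 2.91 in KO (adjusted p = 6.4e-06) and 2.98 in WT (adjusted p = 4.4e-06), and it was called in no genotype contrast. HRGP1, the other tested gene of 10 on its list of extensins and Casparian strip genes, was not called. HCT, the 1 tested gene of 20 for monolignol synthesis and laccases, and SAPX and TAPX, the 2 tested genes of 11 for ascorbate peroxidases and catalases, were called in no contrast.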

How the data were processed

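Each of the 18 arrays has 1 linear intensity for 22810 probe sets in the deposited table. How the authors obtained and scaled these intensity values is not given in the sources used here. Every array mean between the 2nd and 98th percentile lay from 499.82 to 499.85. Intensities were taken as log2(intensity + 16). Apart from 64 control probe sets and 1 with an empty cell, 7632 that exceeded their array's 40th percentile on fewer than 3 arrays were dropped. The remaining 15113 were fitted with limma 3.58.1 in R 4.3.3 (6 group means, 12 residual degrees of freedom, intensity trend). A run of the fit on simulated data used independent noise. It therefore does not cover the parallel deviations of same-numbered arrays described below. The platform annotation supplied the genes, and 13435 of its 13512 single-gene probe sets matched a TAIR10.1 locus. No build is named for the array, so no coordinates are printed, and sequences were not used here.

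The members and all gene lists were chosen with earlier results of these data known. Named besides the members were, per contrast, up to 3 called family genes with the largest rise and up to 3 with the largest fall, up to 2 called genes of each list of related genes, and for each member the 3 single-gene probe sets of highest Pearson's r. Other named genes were chosen after their values were seen.

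Deviations from group means ran in parallel on arrays of the same number (r = 0.106 to 0.599 over probe sets, above 0.1 in every compared pair of groups, against -0.488 to 0.356 for different numbers). The parallel was strongest for replicate 1 (0.318 to 0.599, against 0.106 to 0.39 for replicates 2 and 3). The main fit did not pair arrays by number, a pairing that the labels do not state. The replicate number entered only as a block among the alternatives and where same-numbered arrays were set side by side. Alternatives were pseudocounts of 1 and 64, no filter and a 60th percentile filter, centring and quantile normalization, the replicate number as a fixed or random block, no intensity trend, a robust prior, the groups of a contrast alone, replicates 2 and 3 alone, and leaving out each array. The number of arrays limits the precision.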

Additional observations from a re-analysis of the deposited data

Results flagged for a closer look

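For AT3G03670, KO and WT differed in opposite directions at the 2 stages in every same-numbered pair of arrays, a pairing that the labels do not state. KO minus WT for replicates 1, 2 and 3 was 0.12, 0.78 and 0.65 in buds. In open flowers it was -0.13, -0.81 and -0.27, so the differences of replicate 1 were small at both stages. This pattern was picked out after the values of the members were seen. How many probe sets show the same was not counted, so nothing is concluded from it. KO was above WT in buds, by 0.52 ± 0.28 on the log2 scale (SE), which did not pass (limma, adjusted p = 1.000), with every bud array below the 40th percentile. KO was below WT in open flowers, by -0.41 ± 0.28. The difference of stage changes, KO minus WT, was -0.92 ± 0.40 and was not tested, because the open WT arrays entered the selection of the gene.

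For AT1G25330, the gene most like AT4G11290, the stage change was larger in OE than in WT by 1.02 (limma, adjusted p = 0.037) and larger in OE than in KO by 1.36 (adjusted p = 0.0034). The difference from WT did not pass in 12 of 24 alternatives (adjusted p 0.015 to 0.118), whereas the difference from KO passed in all 24. AT1G25330 was named for its likeness over the same 18 arrays to AT4G11290, which was selected for its high level in open OE flowers, so these p-values are not independent of that choice.

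For AT5G39580, a peroxidase gene that was not among the 6 members, the stage change in OE minus that in KO was -2.45 (limma, adjusted p = 0.022). It did not pass in 5 of 23 alternatives, each of which left out 1 array (adjusted p 0.0068 to 0.089 over all 23). The gene passed the filter through 3 open KO arrays and 1 open WT array, with no OE or bud array above the 40th percentile. Its p is therefore not independent of the filter.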

How the results depend on the processing

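Of the tested differences of members, 349 values under the alternatives kept their direction and their side of the threshold, 13 changed sign and 4 passed newly, and no member that passed was lost. The sign changes were all in differences that did not pass: AT4G11290 between OE and WT buds (-0.01 with centred arrays, -0.01 with quantile normalization, and -0.22 to 0.22 when single arrays were left out), AT4G11290 between KO and WT buds (0.05 with replicates 2 and 3 alone, -0.15 to 0.12 without single arrays) and between OE and KO buds (-0.18 to 0.25), AT5G19880 between KO and WT buds (-0.08 to 0.70), and AT2G37130 between open OE and open KO (-0.42 with replicates 2 and 3 alone, -0.49 to 0.48 without single arrays). The KO stage change of AT3G03670 passed at 0.72 with the replicate number as a fixed block (adjusted p = 0.045) and at 0.72 as a random block (0.046), and ran from 0.35 to 1.03 without single arrays, passing without replicate 2 of open KO. That of AT4G11290 ran from 0.37 to 0.95 and passed without replicate 3 of open KO. The block changed no other call of a member.

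Pseudocounts of 1 and 64 gave a WT stage change of 5.07 and 3.81 for PRX71 and of 5.11 and 2.88 for PRX52, by construction, since the bud values are small. With the 60th percentile filter fewer probe sets remained, and the calls among other peroxidase genes were 0 for OE against WT and 0 for OE against KO in open flowers (2 and 3 in the main analysis), and 7, 7 and 8 for the stage contrasts in OE, KO and WT (11, 12 and 14). For OE against WT in open flowers 1 call was left with the 2 groups alone and 1 with replicates 2 and 3 alone, and 0 to 2 without single arrays. For OE against KO 1 was left in open flowers with the 2 groups alone, and 1 to 3 without single arrays. In buds 0 were left for OE against KO with centred arrays, without the intensity trend, with the 2 groups alone and with replicates 2 and 3 alone, and 0 whenever any array of these groups was left out. For OE against WT in buds there was 1 call without the filter (AT4G30170, log2 change -1.80, adjusted p = 0.039) and 1 with a fixed or a random replicate block (AT5G51890). AT4G30170 averaged 2.57 in OE buds and 52.1 in WT buds and was below the 40th percentile on every array, so its change lies among dim values. Over the called changes of the other 19 peroxidase genes, AT1G25330, UPB1 and AT1G19230, 954 values under the alternatives kept their call, 67 kept the direction without passing and 0 changed sign. The causes were not tested. Bud levels of 5 of the 6 members lay below the 40th percentile of every array, which limits any comparison between buds.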
